A study of Mus musculus with 6 samples.

Results

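The genes described here are the membrane carriers that move amino acids, short peptides and monocarboxylates such as lactate. They were taken as all genes whose single platform symbol begins with Slc1a, Slc3a, Slc6a, Slc7a, Slc15a, Slc16a, Slc36a, Slc38a or Slc43a followed by a digit, which gave 81 of the 18193 genes with a single symbol in the deposited table. Of these 81 members, 78 are carriers and 3 (Slc7a6os, Slc36a1os and Slc6a19os) are genes on the opposite strand of a carrier that share its symbol. One probe set stood for each gene, the one with the highest mean over the 6 arrays, and a gene was tested if it lay above 5 (log2) on at least 3 arrays. That left 36 members to test, of which only Slc7a6os is not a carrier, and 45 that are given by their values only.

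RNA of intestinal epithelial cells was measured on Affymetrix arrays, 1 per mouse, in 3 GGTase-I deficient mice and 3 control mice. GGTase-I attaches a geranylgeranyl lipid to proteins, and Pggt1b codes for its beta chain. The deficient mice were floxed at Pggt1b and positive for VillincreERT2, in which the promoter of the epithelial gene Villin drives a Cre recombinase that tamoxifen switches on. The controls were floxed too but VillincreERT2 negative, so the recombinase itself and the deletion cannot be told apart. Mice of both groups were of mixed 129/SV and C57BL/6 background and received 1 mg of tamoxifen on each of 3 days, with cells taken on day 6 from the start of treatment. The sources used here do not give age, sex or the sampled part of the intestine.

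Dietary protein reaches the enterocyte as free amino acids and as di- and tripeptides. Peptides enter across the brush border with protons through Slc15a1, and amino acids through sodium-coupled carriers such as Slc6a19 and through exchangers made of a heavy and a light chain. On the blood side, a second set of exchangers and facilitative carriers lets them out. Carriers such as Slc38a1 and Slc38a2 and the cationic carrier Slc7a1 supply cells with amino acids for their own growth. The Slc16 family carries lactate, ketone bodies, aromatic amino acids and related acids.

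Markers of enterocytes were present in both groups, with each of the 15 on the array above 5 somewhere in either group and a mean log2 level of 12.84 to 13.61 in deficient arrays and 13.42 to 13.95 in control arrays. The 16 markers of T cells and intraepithelial lymphocytes averaged 5.05 to 6.26 in deficient arrays and 8.34 to 8.47 in control arrays. Of these, Cd3d, Cd8b1, Cd7, Cd2, Il2rb and Cd247 were at or below 5 on all 3 deficient arrays. Cd8b1, Cd2 and Cd247 were at or below 5 on all 3 control arrays too. Of the 13 tested, 11 fell at a limma adjusted p under 0.05, as did 4 of 11 tested myeloid markers. Among all genes tested, 1.98% were called lower. Il2rb, Cd3d, Cd7 and the myeloid marker Itgax, counted here, passed the filter through the 3 control arrays alone, so their falls are no independent support. Markers of ileum, proximal small intestine and colon averaged above 5 on all arrays, with Osr2 of the ileum list and Muc1 of the colon list at or below 5 on each. The ileum markers averaged 0.82, 0.71 and 0.04 relative to the control mean in deficient replicates 1, 2 and 3, and 0.71, -1.51 and 0.80 in control replicates 1, 2 and 3, so control replicate 2 stood apart. Pggt1b itself read 9.75, 8.88 and 8.83 in deficient arrays and 9.30, 9.55 and 9.33 in control arrays, so its RNA level did not tell the groups apart (limma adjusted p = 0.678), and directions rest on the labels. No probe position was used here, so whether the probe set lies in the deleted stretch is unknown. In such bulk samples, fewer cells of a type and less RNA per cell cannot be told apart.

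In all, 0 of the 36 tested members passed the threshold, an adjusted p of 0.05 over all 8893 genes tested with limma, while 2.09% of all genes did (1.98% lower and 0.112% higher in deficient arrays). At an unadjusted p under 0.05, 8 members stood out, against 16.9% of all genes: Slc16a9, Slc7a8, Slc38a9, Slc6a4 and Slc3a2 with lower means and Slc7a1, Slc1a4 and Slc38a1 with higher means in deficient arrays. That is 22.2% of the tested members, 13.9% lower and 8.33% higher, against 11.3% and 5.6% of all genes. The groups did not overlap for 10 members (27.8%), close to the 25.7% of all genes. In 6 of them (16.7% of the members, against 16.7% of all genes) the deficient arrays were lower, and in 4 (11.1% against 9.0%) higher. By mean, 22 members were lower and 14 higher in deficient arrays, which is 61.1% lower against 54.6% of all genes, with a median log2 change of -0.22 against -0.04. The lower and upper quartiles were -0.72 and 0.23 for the members and -0.31 and 0.21 for all genes. Without deficient replicate 1 the median of the members was -0.13. The plot of fitted changes by role shows that the intervals of most members include 0 and that the carriers which supply the cell lie on the higher side.

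**Figure D1:**
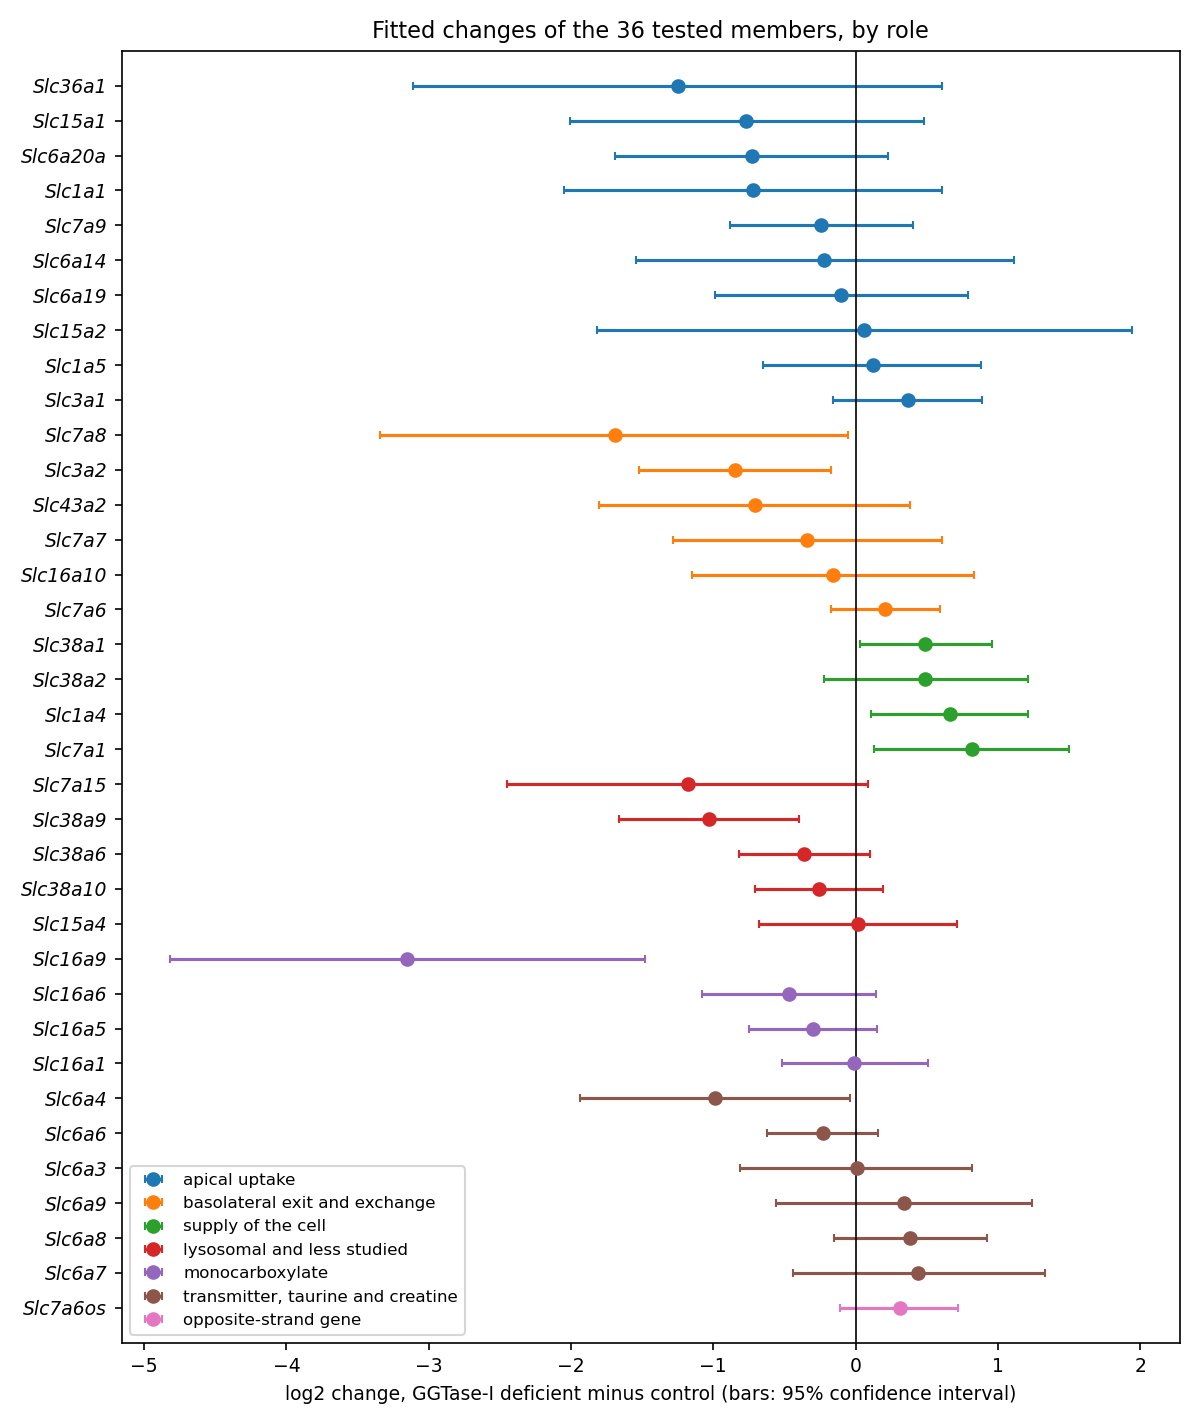
Fitted log2 change (x axis, GGTase-I deficient minus control) of the 36 tested members, grouped by role; points are limma estimates from 3 arrays per group and bars are 95% confidence intervals. Slc16a9 lies farthest from 0 at -3.15, and the 4 carriers that supply the cell (Slc38a1, Slc38a2, Slc1a4 and Slc7a1) all lie above 0. Those 4 were grouped with earlier results of these data known, so their shared direction is no independent support.

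The largest difference among the carriers was that of Slc16a9, a member of the monocarboxylate family known in human cells as a carnitine carrier. It read 4.97, 3.34 and 5.38 in deficient arrays and 6.72, 8.98 and 7.44 in control arrays. All deficient values lay below all control values, and 2 of the 3 deficient arrays were at or below the level 5. The log2 change was -3.15 ± 0.71 (SE), with a 95% confidence interval of -4.82 to -1.48 and a limma adjusted p of 0.096. With values below 5 raised to 5 the difference was -2.59, at least 6.01-fold lower in deficient arrays. A further Slc16a9 probe set past the filter read 4.09, 3.47 and 4.51 in deficient arrays and 6.5, 8.09 and 6.79 in control arrays, a difference of -3.10. This probe set passed the filter through the 3 control arrays alone, and the main one through the controls and 1 deficient array, so neither is independent support. Averaging them gave a limma adjusted p of 0.0489 and array weights gave 0.0439, while over the other alternatives and the fits that left out 1 array it ran from 0.0776 to 0.307. The lymphocyte markers were lower in the same arrays, and their part in this difference was not tested.

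The groups overlapped for the other 3 tested monocarboxylate carriers. Slc16a1, the main lactate and butyrate carrier of the gut epithelium, read 12.83, 12.24 and 12.16 in deficient arrays and 12.47, 12.29 and 12.49 in control arrays. Its log2 change was -0.01, with a 95% confidence interval of -0.52 to 0.51, and its sign turned under quantile normalization and median centring. Slc16a5 and Slc16a6, carriers of the same family, were at -0.30 and -0.47, with limma adjusted p of 0.445 and 0.390. Slc16a6 exports ketone bodies from the liver in zebrafish. Slc16a3, a lactate exporter of glycolytic cells, lay above 5 on 1 array only, with 5.25, 3.92 and 3.89 in deficient arrays and 3.85, 3.92 and 3.97 in control arrays, and was not tested. Deficient replicate 1 was the one array in which Slc16a3 left the floor, and it also held the highest Slc16a1 value. As a group, the 4 tested monocarboxylate carriers other than the aromatic amino acid carrier Slc16a10 had lower means in deficient arrays, as did 54.6% of all genes. The median of these 4 was -0.39. Leaving out 1 array moved 1 of them, Slc16a1, to the other side in some fits.

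Among the carriers of the blood side, the heavy chain Slc3a2 and its light chain Slc7a8 both had lower values in every deficient array. Slc3a2 (4F2hc), which brings the light chains to the basolateral membrane, read 9.98, 10.91 and 10.84 in deficient arrays and 11.18, 11.62 and 11.46 in control arrays. Its log2 change was -0.85 ± 0.28 (SE, limma adjusted p = 0.221), and -0.55 without deficient replicate 1. Slc7a8 (LAT2), an exchanger of neutral amino acids, read 6.82, 9.10 and 9.64 in deficient arrays and 9.81, 10.64 and 10.20 in control arrays. The log2 change of Slc7a8 was -1.69 ± 0.69 (SE), 95% confidence interval -3.34 to -0.05, and the limma adjusted p was 0.285. Deficient replicate 1 lay far below the other arrays for Slc7a8, and without that array the change was -0.84.

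The other partners of Slc3a2 did not follow in step. Slc7a7 (y+LAT1), which exports cationic amino acids in exchange for neutral ones, read 9.33, 10.82 and 10.49 in deficient arrays and 10.23, 10.51 and 10.90 in control arrays, with a log2 change of -0.34 that became 0.10 without deficient replicate 1. Its 2 probe sets past the filter disagreed in direction, at -0.34 and 1.37. Slc7a6 (y+LAT2), a related exchanger, was at 0.21 with values of at most 5.47 on all arrays, just above the filter. Slc7a5 (LAT1), the light chain that growing cells use to take up large neutral amino acids, lay at or below 5 on all arrays, with 4.95, 4.95 and 3.04 in deficient arrays and 3.99, 2.97 and 3.42 in control arrays, and was not tested. Of the facilitative carriers, Slc43a2 (LAT4) was at -0.71 and Slc16a10 (TAT1), the carrier of aromatic amino acids, at -0.16. Slc43a2 read 10.41, 11.91 and 12.17 in deficient arrays and 11.85, 12.44 and 12.32 in control arrays, and without deficient replicate 1 its change was -0.17. Slc16a10 changed sign without that array, to 0.33, and its other probe sets past the filter were at -0.76 and -0.18. The 6 tested carriers of this side had a median of -0.52, with 5 lower by mean, against 54.6% of all genes. When deficient replicate 1 was left out, the median was -0.03 with 3 lower.

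**Figure D2:**
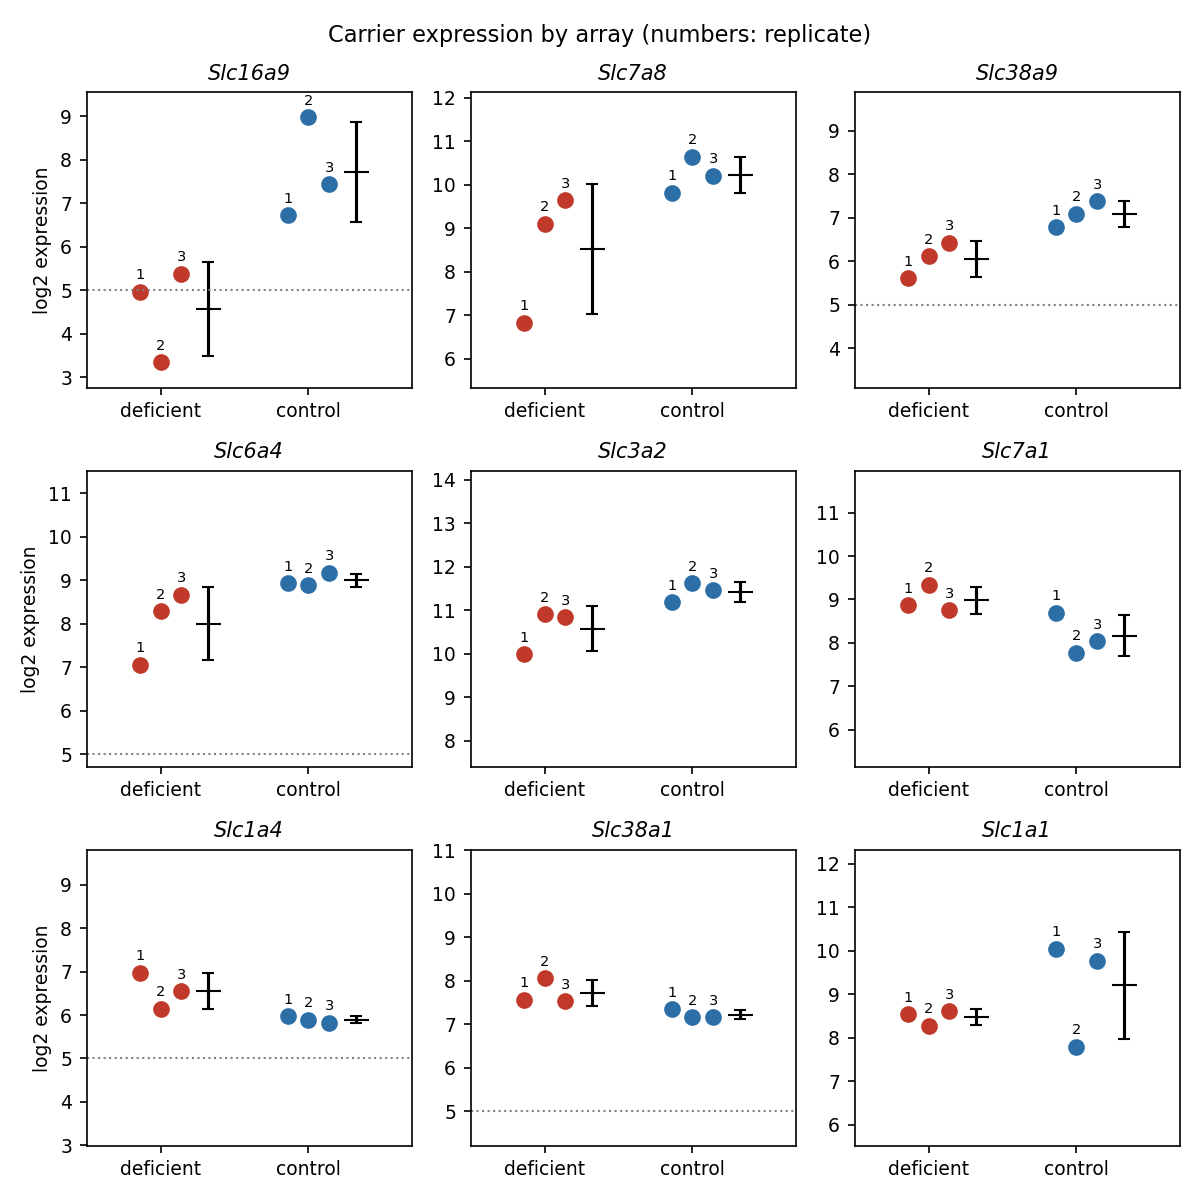
Log2 expression (y axis) of 9 carriers in the 3 deficient and 3 control arrays; numbers mark the replicate, black bars the mean and SD of each group, and the dotted line the level 5; each panel spans the same number of log2 units. The groups of the first 8 genes do not overlap, while control replicate 2 lies below all deficient arrays for Slc1a1.

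Carriers of the brush border did not pass as single genes. Slc15a1 (PEPT1), which takes up di- and tripeptides, read 9.96, 11.36 and 11.77 in deficient arrays and 11.05, 12.28 and 12.06 in control arrays. The groups overlapped, and the log2 change of -0.77 ± 0.52 (SE, limma adjusted p = 0.479) was -0.23 without deficient replicate 1. Slc6a19 (B0AT1), the main sodium-coupled carrier of neutral amino acids, read 11.98, 13.19 and 12.97 in deficient arrays and 12.28, 13.02 and 13.13 in control arrays. Its log2 change was -0.10, with a 95% confidence interval of -0.99 to 0.79, and it was 0.27 without deficient replicate 1. A further Slc6a19 probe set past the filter was at -0.48. Slc6a20a, which carries proline and other imino acids, read 11.69, 13.30 and 12.94 in deficient arrays and 13.18, 13.56 and 13.37 in control arrays, a change of -0.73 that was -0.25 without deficient replicate 1. Slc36a1 (PAT1), a proton-coupled carrier of small amino acids found at the brush border and in lysosomes, had the widest spread of these, with 6.69, 9.22 and 9.72 in deficient arrays and 9.01, 10.16 and 10.22 in control arrays. Its log2 change was -1.25 ± 0.78 (SE, limma adjusted p = 0.439), and -0.33 without deficient replicate 1.

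The heteromer of Slc3a1 (rBAT) and Slc7a9 (b0,+AT), which takes up cystine and cationic amino acids and whose loss causes cystinuria, had overlapping groups. Slc3a1 read 12.16, 12.09 and 11.93 in deficient arrays and 11.36, 11.64 and 12.09 in control arrays, a log2 change of 0.37 (95% confidence interval -0.16 to 0.89). Slc7a9 was at -0.24, with an interval of -0.88 to 0.40, and at 0.04 without deficient replicate 1. Both intervals exclude a 2-fold change in either direction.

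Slc1a1 (EAAT3), the glutamate and aspartate carrier, had a result that turned on a control array. It read 8.54, 8.27 and 8.61 in deficient arrays and 10.04, 7.79 and 9.77 in control arrays. Control replicate 2 lay below all deficient arrays and the other controls above them, and the log2 change was -0.72 ± 0.56 (SE, limma adjusted p = 0.533). Without control replicate 2, the array in which the ileum markers were also low, the change was -1.43 and the limma adjusted p 0.0357. The part of the segment markers in this difference was not tested. A further Slc1a1 probe set read 7.37, 7.65 and 8.16 in deficient arrays and 9.67, 8.18 and 9.55 in control arrays, a difference of -1.41. Slc1a5 (ASCT2), a carrier of glutamine and other neutral amino acids, was at 0.12, with an interval of -0.65 to 0.88. Slc6a14, a broad carrier of neutral and cationic amino acids, was at -0.22, and its probe sets disagreed in direction, at -0.22 and 0.69. Slc15a2 (PEPT2), the high-affinity peptide carrier known from the kidney, was at 0.06, with values from 4.55 to 7.14 in deficient arrays and 4.93 to 7.09 in control arrays.

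Deficient replicate 1 stood apart for the brush-border and blood-side carriers. Of the 36 tested members 19 (52.8%) had their lowest value in deficient replicate 1, as did 11 of the 16 brush-border and blood-side carriers, against 26.4% of all genes tested. The same array held the highest value of 11 members (30.6%, against 22.1% of all genes). The members of the brush-border group averaged -0.82, -0.25 and 0.02 relative to the control mean in deficient replicates 1, 2 and 3, and -0.18, -0.15 and 0.33 in control replicates 1, 2 and 3. Those of the blood-side group averaged -1.44, -0.20 and -0.13 in deficient arrays and -0.29, 0.15 and 0.14 in control arrays. The average of the enterocyte markers was also lowest in deficient replicate 1. It was -0.89, -0.13 and -0.12 in deficient arrays and -0.31, 0.22 and 0.10 in control arrays. Single markers differed: in deficient replicate 1 Slc2a2 and Lct were at their lowest, 8.77 and 12.67, and Apoa1 and Alpi at their highest, 16.06 and 14.42. The peptidases that release amino acids at the brush border and in the cytosol averaged -0.41, -0.06 and 0.05 in deficient arrays and -0.05, -0.17 and 0.22 in control arrays. The part of the number of enterocytes in the values of this array was not tested. The heat map of the tested members shows deficient replicate 1 as the column with the deepest blue for most carriers of both groups, with the carriers that supply the cell as a block of higher values below them.

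**Figure D3:**
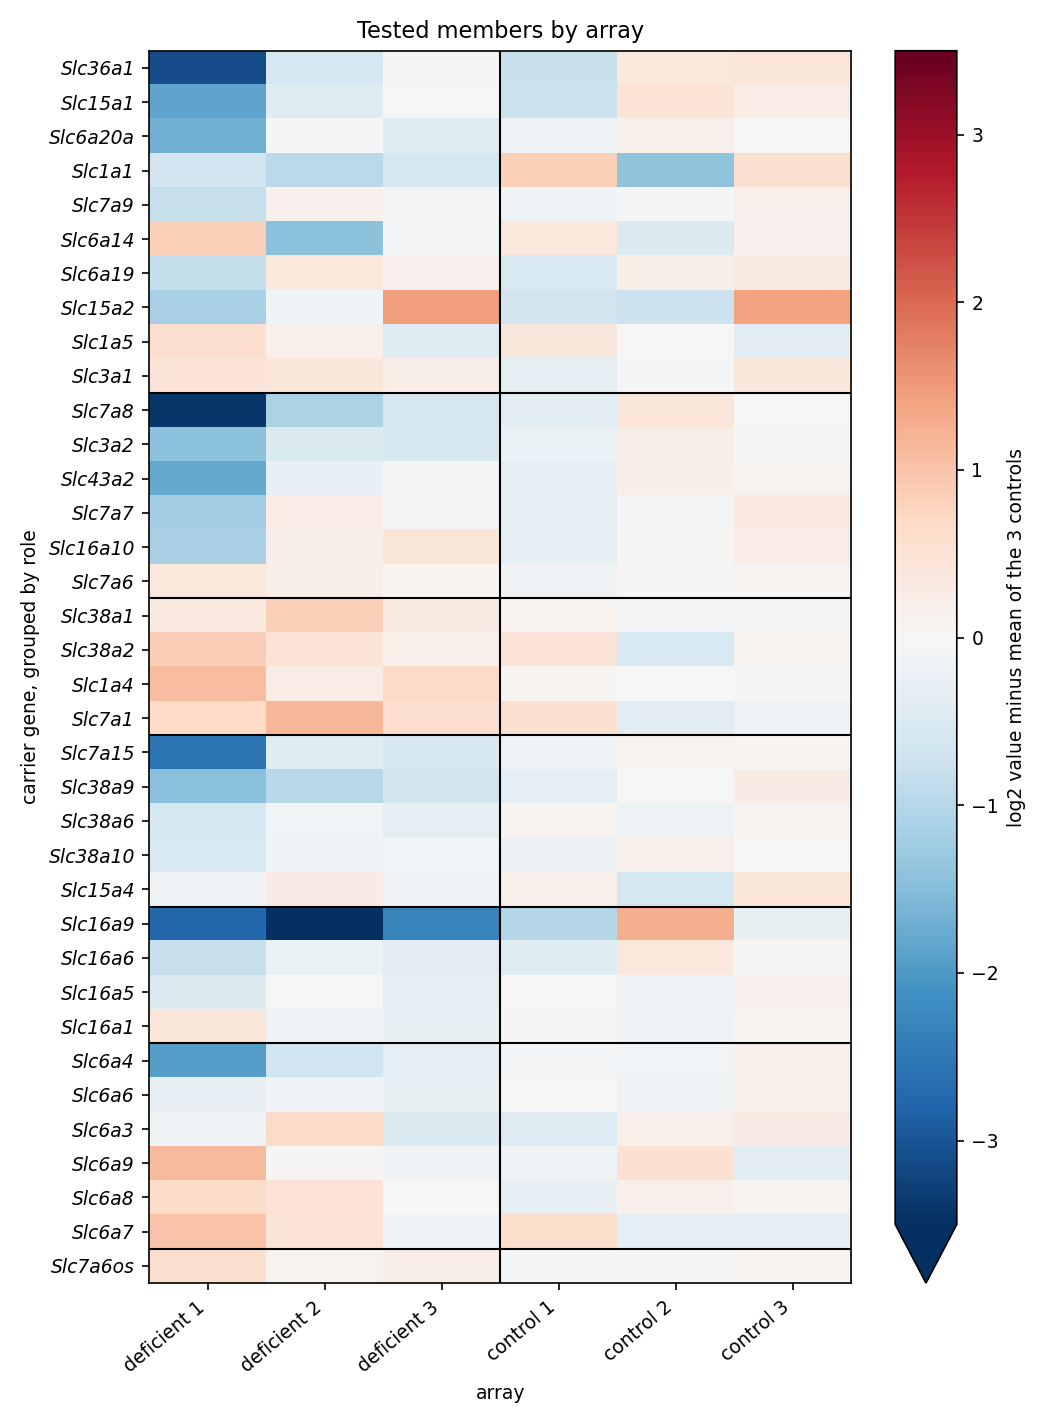
Log2 value minus the mean of the 3 controls (colour) for the 36 tested members (rows, grouped by role in the order brush border, blood side, supply of the cell, lysosomal and less studied, monocarboxylate, transmitter and creatine carriers, opposite-strand gene) in each array (columns, deficient on the left). Deficient replicate 1 is lowest in 19 rows, and Slc16a9 is low in all 3 deficient arrays.

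The carriers that supply the cell's own needs had higher means in deficient arrays, 4 of 4, with a median of 0.58 and, when any 1 array was left out, 0.51 to 0.71. This group was put together with earlier results of these data known, so its shared direction is no independent support. It leaves out Slc38a6, Slc38a9 and Slc38a10 of the Slc38 family, which had lower means. Of the 5 tested members of that family, 3 were lower and 2 higher by mean, with a median of -0.26. By mean, 54.6% of all genes were lower. Of all genes, 5.6% had higher values at an unadjusted p under 0.05. For a group chosen with results known, a comparison with that share gives no support. In 3 of these 4 carriers the unadjusted p was under 0.05, and 0 passed after adjustment over all genes. That count of 3 became 0 without control replicate 2, 1 without control replicate 3 and 1 without deficient replicate 2. Slc7a1 (CAT1), the carrier of arginine and lysine found on most growing cells, read 8.87, 9.34 and 8.75 in deficient arrays and 8.70, 7.77 and 8.04 in control arrays. All deficient values lay above all control values, though control replicate 1 came close to deficient replicate 3, and the log2 change was 0.82 ± 0.29 (SE, limma adjusted p = 0.237). Its second probe set past the filter was at 0.70. Slc1a4 (ASCT1), a carrier of alanine, serine and cysteine, read 6.97, 6.14 and 6.55 in deficient arrays and 5.97, 5.89 and 5.82 in control arrays. The controls of Slc1a4 lay within a narrow band below all deficient values, and the log2 change was 0.66 ± 0.23 (SE, limma adjusted p = 0.236).

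Slc38a1 (SNAT1), a sodium-coupled carrier of glutamine, read 7.56, 8.05 and 7.53 in deficient arrays and 7.34, 7.16 and 7.16 in control arrays, a log2 change of 0.49 ± 0.19 (SE, limma adjusted p = 0.276). Its second probe set was at 0.56. Slc38a2 (SNAT2), known in cultured cells for its induction by amino acid shortage, read 11.47, 11.08 and 10.78 in deficient arrays and 11.07, 10.07 and 10.70 in control arrays. Those groups overlapped, and the change was 0.49 ± 0.30 (SE, limma adjusted p = 0.429). Its second probe set past the filter was at 0.09, and averaging both gave 0.29. Without control replicate 2 the change of Slc38a2 was 0.22, and without deficient replicate 1 it was 0.32. The crypt markers also had higher means in deficient arrays, 7 of 7 tested, while 54.6% of all genes had lower means. Their median was 0.94, with 0 past the threshold. Relative to the control mean they averaged 0.74, 1.19 and 0.80 in deficient arrays and 0.93 and 0.08 in control replicates 1 and 3. Control replicate 1 thus lay above deficient replicates 1 and 3, and the groups overlapped. Control replicate 2, the array with the lowest crypt markers, had the lowest values of Slc7a1 and Slc38a2. Slc1a4 was lowest in control replicate 3, and Slc38a1 read 7.16 in both control replicates 2 and 3. The part of crypt cells in the differences of the carriers that supply the cell was not tested. The plot of carrier groups beside cell type markers shows both patterns.

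**Figure D4:**
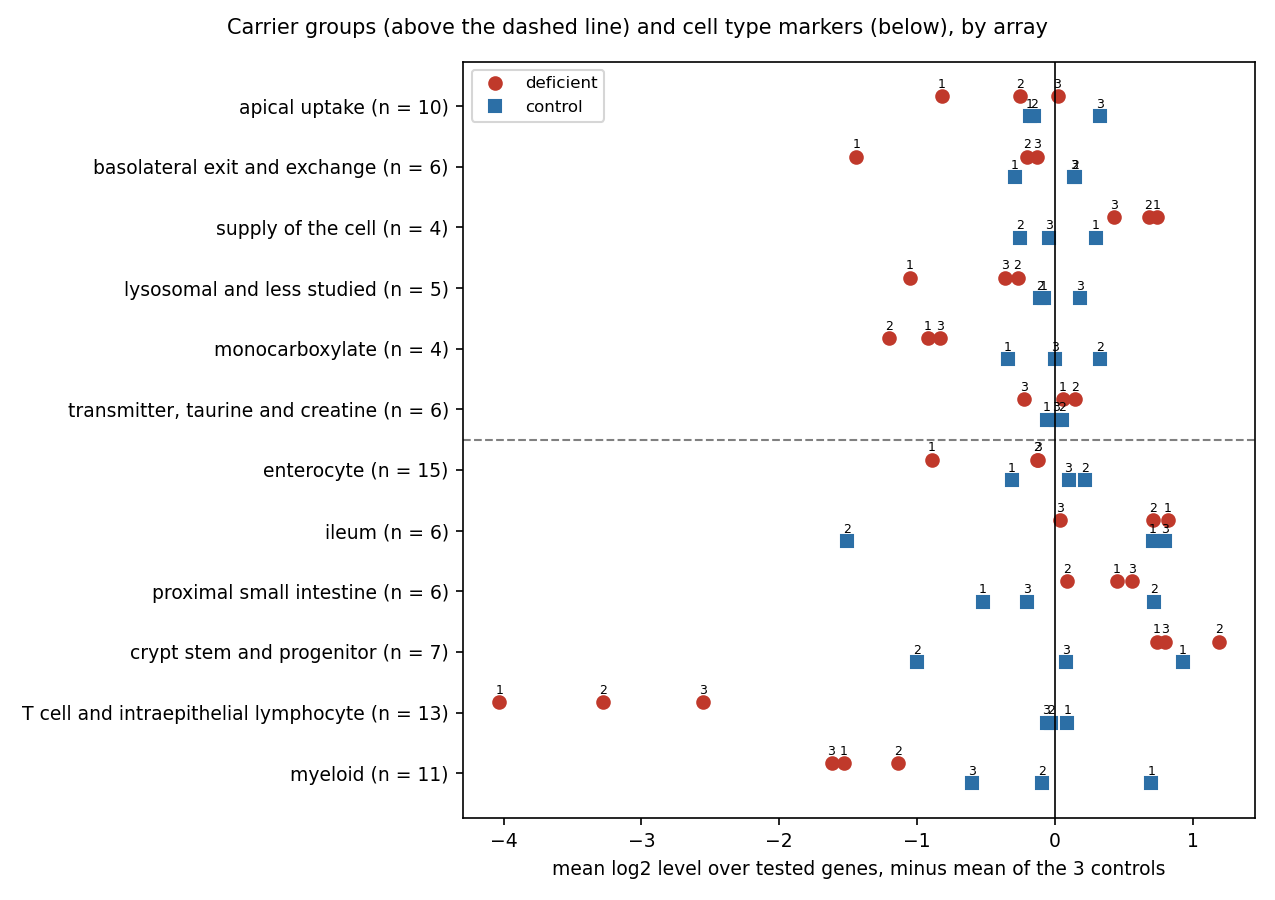
Mean log2 level over the tested genes of each group, minus the mean of the 3 controls (x axis), for 6 groups of carriers (above the dashed line) and 6 lists of cell type markers (below it); red circles are deficient arrays, blue squares control arrays, numbers the replicate, and n the number of genes. The 3 deficient arrays lie above all controls for the carriers that supply the cell, at 0.74, 0.68 and 0.43 against 0.30, -0.25 and -0.04. That group was put together with earlier results of these data known, so this separation is no independent support.

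Some amino acid carriers are textbook targets of ATF4, the transcription factor of the amino acid response, which binds a C/EBP-ATF response element. The letters TGATGNAA, the core of that element, were searched on both strands in the RefSeq promoters (GRCm38.p6, 250 bases before to 50 after each start). Of the 81 members, 59 matched by symbol, with 80 start sites. The motif was in 6 of these 80 promoters (7.5%), those of Slc1a4, Slc7a7, Slc7a11, Slc15a5 and Slc6a21, and in 3.97% of all 32851 promoters. Slc7a7 was counted more than once, through overlapping promoters that share a TGATGCAA site. CAAAGTCCA, a motif of the enterocyte factor HNF4A, was in Slc3a1 alone among the members, and in 0.475% of all promoters. The promoters of Slc7a1, Slc3a2 and Slc7a8 hold neither motif in this window. Those of Slc1a4, Slc7a7 and Slc7a11, amino acid carriers with the first motif, are shown with that motif in capitals. The promoter of Slc16a9, the member with the largest difference, follows and holds neither motif in this window.
Slc1a4, chr11:20332664-20332963, minus strand: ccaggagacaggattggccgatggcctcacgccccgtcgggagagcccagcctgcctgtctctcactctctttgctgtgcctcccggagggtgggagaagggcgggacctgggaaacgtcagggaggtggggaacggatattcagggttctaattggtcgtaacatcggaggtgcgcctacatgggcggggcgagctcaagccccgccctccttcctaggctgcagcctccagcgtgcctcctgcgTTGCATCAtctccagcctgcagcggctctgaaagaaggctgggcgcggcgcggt
Slc7a7, chr14:54417895-54418194, minus strand: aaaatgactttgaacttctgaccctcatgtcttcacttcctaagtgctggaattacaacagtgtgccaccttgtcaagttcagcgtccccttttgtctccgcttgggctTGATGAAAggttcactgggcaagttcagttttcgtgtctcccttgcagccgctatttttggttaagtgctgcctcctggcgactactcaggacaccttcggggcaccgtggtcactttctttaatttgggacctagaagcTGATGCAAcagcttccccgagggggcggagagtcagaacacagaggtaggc
Slc7a11, chr3:50443564-50443863, minus strand: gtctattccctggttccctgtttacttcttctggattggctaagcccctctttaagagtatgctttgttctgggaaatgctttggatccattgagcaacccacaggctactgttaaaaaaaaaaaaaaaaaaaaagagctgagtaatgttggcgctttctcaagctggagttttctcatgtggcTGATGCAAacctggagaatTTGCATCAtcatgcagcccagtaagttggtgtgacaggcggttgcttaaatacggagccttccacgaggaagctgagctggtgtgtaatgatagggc
Slc16a9, chr10:70245026-70245325, plus strand: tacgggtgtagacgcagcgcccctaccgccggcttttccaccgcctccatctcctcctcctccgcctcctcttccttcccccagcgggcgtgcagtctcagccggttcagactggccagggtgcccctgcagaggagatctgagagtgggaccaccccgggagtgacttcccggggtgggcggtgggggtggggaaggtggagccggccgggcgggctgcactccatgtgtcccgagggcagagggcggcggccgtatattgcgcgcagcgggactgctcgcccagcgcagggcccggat

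The 5 genes with the element read differently on the arrays. Slc1a4 had the higher values given above, the groups overlapped for Slc7a7, and Slc7a11 (xCT), the cystine and glutamate exchanger, lay near the floor with 3.96, 3.95 and 3.93 in deficient arrays and 3.88, 4.02 and 4.01 in control arrays. Slc15a5, of the peptide carrier family, and Slc6a21 were not tested, with values of at most 3.09 and 2.12 on all arrays. A match is a description of these letters and not of binding.

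In the list of ATF4 and amino acid response genes, 1 of 21 tested members fell and 0 rose, against 1.98% and 0.112% of all genes. The member that fell was Cebpb, a transcription factor that also heterodimerises with ATF4, at 11.12, 11.41 and 11.44 in deficient arrays and 12.35, 12.48 and 12.13 in control arrays (log2 change -0.99 ± 0.18, limma adjusted p = 0.0421). Cebpb did not pass in any of the 6 fits that left out 1 array, with limma adjusted p up to 0.144. Of the list, 7 had higher and 3 lower values at an unadjusted p under 0.05, against 5.6% and 11.3% of all genes, and its median was 0.05. Asns, asparagine synthetase, read 8.69, 9.20 and 8.66 in deficient arrays and 7.97, 7.27 and 7.79 in control arrays, a log2 change of 1.17 ± 0.25 (SE, limma adjusted p = 0.0822). It passed under quantile normalization, median centring and array weights, with limma adjusted p of 0.0416, 0.0462 and 0.0344. Asns did not pass in any of the 6 fits that left out 1 array, with limma adjusted p up to 0.261.

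Slc38a9, the lysosomal arginine sensor that signals to mTORC1, had the second smallest p among the carriers. It read 5.61, 6.12 and 6.43 in deficient arrays and 6.78, 7.09 and 7.38 in control arrays. The groups did not overlap, and the log2 change was -1.03 ± 0.27 (SE), 95% confidence interval -1.66 to -0.40, with a limma adjusted p of 0.142 that ran from 0.0565 to 0.346 over the alternatives and the fits that left out 1 array. Its other probe sets lay below 5 on all arrays. In the list of mTORC1 amino acid sensing genes, 0 of 19 tested members passed with limma, while 3 were lower and 0 higher at an unadjusted p under 0.05, against 11.3% and 5.6% of all genes: Slc38a9 itself, Lamtor2, a subunit of the Ragulator scaffold on lysosomes, at -0.53, and Nprl2, a subunit of the GATOR1 complex, at -0.42. The list median was -0.25.

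The remaining carriers without a firmly placed role in the enterocyte had lower means in 3 cases, and 0 passed with limma. Slc7a15, described in mouse as a carrier with a preference for aromatic amino acids, read 6.29, 8.39 and 8.26 in deficient arrays and 8.67, 8.91 and 8.90 in control arrays. Its groups did not overlap, but deficient replicate 1 stood far below the rest, and the log2 change of -1.18 ± 0.54 (SE, limma adjusted p = 0.322) was -0.50 without it. Slc38a6 and Slc38a10, members of the glutamine carrier family, were at -0.36 and -0.26. Slc15a4, the lysosomal carrier of histidine and peptides known from immune cells, was at 0.02, with an interval of -0.68 to 0.71.

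In the Slc6 family, Slc6a4 differed most. Slc6a4, the serotonin transporter, which clears serotonin released by enterochromaffin cells, read 7.06, 8.29 and 8.67 in deficient arrays and 8.93, 8.89 and 9.17 in control arrays. All deficient values lay below all control values, and the log2 change was -0.99 ± 0.40 (SE, limma adjusted p = 0.281). Without deficient replicate 1, the lowest of the 6 arrays, it was -0.52. Markers of enteroendocrine cells averaged -1.15, -0.03 and 0.56 in deficient arrays and -0.06, 0.60 and -0.53 in control arrays, and their part was not tested. The taurine carrier Slc6a6 was at -0.23, with an interval of -0.62 to 0.16. The creatine carrier Slc6a8 read 13.01, 12.89 and 12.40 in deficient arrays and 12.10, 12.56 and 12.48 in control arrays, a change of 0.38, while its other probe set was at -0.20. Slc6a9 and Slc6a7, carriers of glycine and proline known from the nervous system, were at 0.34 and 0.44, and the dopamine transporter Slc6a3 at 0.01. These 3 read between 5.01 and 6.67 on all arrays, close to the filter.

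The 45 members that were not tested ranged from 1.31 to 5.25. Of these, 41 were at or below 5 on all 6 arrays, and 4 lay above it on 1 array each: Slc16a3, given above, Slc16a4 with 4.47, 5.15 and 4.64 in deficient arrays and 4.23, 4.21 and 4.12 in control arrays, Slc36a4 with 3.96, 4.0 and 3.60 in deficient arrays and 5.12, 2.91 and 4.17 in control arrays, and Slc7a4 with 4.14, 3.97 and 4.19 in deficient arrays and 4.62, 5.04 and 4.15 in control arrays. Values this low carry no order here. Slc43a1 (LAT3), a facilitative carrier of branched-chain amino acids, lay between 2.23 and 2.32. Of the 36 tested members, 34 were above 5 on all 6 arrays, and Slc16a9 and Slc15a2 were not. Slc7a6os, the tested opposite-strand gene, read 7.72, 7.27 and 7.40 in deficient arrays and 7.13, 7.12 and 7.23 in control arrays, a log2 change of 0.31 (limma adjusted p = 0.407) with no overlap.

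Genes that work with the carriers did not pass either. Of 9 tested partner and scaffold proteins, 0 passed with limma. At an unadjusted p under 0.05, 1 was higher, against 5.6% of all genes. Itgb1, the beta1 integrin, which associates with Slc3a2, read 9.76, 9.81 and 9.36 in deficient arrays and 9.07, 8.31 and 9.05 in control arrays, a log2 change of 0.83 ± 0.26 (SE, limma adjusted p = 0.198), while Slc3a2 itself was lower. Pdzk1, a brush-border scaffold, was at -0.66, and its limma adjusted p was 0.322. Of 19 peptidases 0 passed, with Prep, a cytosolic prolyl peptidase, at 1.08 and Npepl1 at -0.77 (limma adjusted p = 0.118 and 0.244), and a median of -0.19. Prep passed under quantile normalization, with a limma adjusted p of 0.0454. It did not pass in any of the 6 fits that left out 1 array, with limma adjusted p up to 0.346. Brush-border aminopeptidase N (Anpep) was at -0.33.

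Of 16 tested enzymes of amino acid and lactate metabolism, 0 passed with limma. By mean, 13 were lower in deficient arrays, against 54.6% of all genes, and the median was -0.46. At an unadjusted p under 0.05, 7 were lower and 1 higher, against 11.3% and 5.6% of all genes. Bckdha, a subunit of the branched-chain keto acid dehydrogenase, read 5.68, 5.85 and 6.46 in deficient arrays and 7.13, 7.26 and 6.83 in control arrays, a log2 change of -1.07 ± 0.25 (SE, limma adjusted p = 0.107). Prodh, the first enzyme of proline breakdown, read 7.46, 7.62 and 8.24 in deficient arrays and 8.74, 8.74 and 8.54 in control arrays, a change of -0.91 ± 0.23 (SE, limma adjusted p = 0.143). Without deficient replicate 3 both passed, with limma adjusted p of 0.0403 and 0.0427. Neither passed in any other fit that left out 1 array, with limma adjusted p up to 0.338 and 0.382. This list averaged -1.03, -0.43 and -0.32 in deficient arrays and 0.14, 0.00 and -0.13 in control arrays. All 3 deficient arrays lay below all controls in these averages, with replicate 1 again the lowest. The averages and the 7 lower genes include Arg1, at 2.36, 2.69 and 4.74 in deficient arrays and 8.84, 5.93 and 5.49 in control arrays. Arg1 passed the filter through the 3 control arrays alone, so its part in these averages is no support, and averages without it were not made.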

How the data were processed

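The authors deposited 1 log2 expression value per probe set and array. Partek 6.5 and GCRMA are named, with no order or role, per the submitters' processing notes. The log2 scale was read from the values (0.42 to 16.4, array medians 3.26 to 3.33). With arrays alone, precision depends on their number. Of 45101 probe sets, 64 controls were left out, and the platform annotation gave 1 symbol to 34945, several to 932 and none to 9160. Entrez IDs of 34741 matched the GRCm38.p6 gene table, which changed 0 symbols. Some probe sets used (Slc1a1, Slc1a4, Slc38a1, Slc38a10, Slc3a2 and Slc7a7) can match several transcripts.

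The fit was made in limma 3.58.1 (R 4.3.3; lmFit, eBayes, all 6 arrays, without covariates) on the 8893 genes above 5 on at least 3 arrays, with two-sided p-values adjusted by Benjamini-Hochberg over all of them at 0.05. Differences are deficient minus control and intervals are 95%. The script was tested on simulated data. Replicates are separate mice. An exact permutation test of 3 against 3 cannot give a two-sided p below 0.10. Members, role groups, lists and the naming rule were chosen with earlier results of these data known. The rule named members past the threshold or with an unadjusted p under 0.05, the 8 largest rises and falls, 26 carriers of the intestine and, in other lists, genes past the threshold and 2 with the smallest p. Other named genes were picked once values were known. Alternatives changed the filter, floor, scaling, probe sets, moderation, array weights and the replicate block. Arrays were also left out 1 at a time.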

Additional observations from a re-analysis of the deposited data

How the results depend on the processing

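The count of carriers past the threshold was 0 lower and 0 higher in most settings. It was 1 lower when probe sets were averaged and 1 lower with array weights (Slc16a9 in both), and 0 to 1 when 1 array was left out (Slc1a1, without control replicate 2). Carriers with an unadjusted p under 0.05, a count chosen after seeing the data, numbered 5 lower and 3 higher, with 2 to 6 lower and 0 to 3 higher when 1 array was left out. With median centring or no filter 3 were lower, and with the replicate block 8. Of all genes, 176 lower and 10 higher passed, with 88 to 203 lower and 3 to 36 higher when 1 array was left out. Without a filter 85 were lower and 0 higher, quantile normalization gave 25 higher, median centring 17 and array weights 33. The labels used here name no pairs of mice. Same-numbered arrays deviated from their group means with correlations of 0.05, -0.29 and 0.00. Such deviations sum to 0 within each group of 3 arrays, so these correlations cannot decide whether replicate numbers pair the mice. The fit with the replicate block called 132 lower and 9 higher genes, 0 of them carriers. Of 28 tested named carriers, 20 kept their direction in all 18 alternatives in which they had a value. The others were small differences. Slc16a1 was at 0.03 under quantile normalization and 0.07 under median centring, and from -0.21 to 0.12 when 1 array was left out. Averaged probe sets gave 0.23 for Slc6a14 and 0.52 for Slc7a7. When 1 array was left out, Slc16a10 ran from -0.46 to 0.33, Slc1a5 from -0.13 to 0.40, Slc6a14 from -0.74 to 0.40, Slc6a19 from -0.37 to 0.27, Slc6a9 from -0.04 to 0.60, Slc7a7 from -0.64 to 0.10 and Slc7a9 from -0.44 to 0.04. The cause of these moves was not tested. Values near the floor limit Slc16a9, Slc15a2 and all members that were not tested.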
